A study of Rattus norvegicus with 10 samples.

Results

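The mitochondrial carriers of the Slc25 family were examined in liver RNA of EHBR and SD rats. They were taken as every gene whose symbol starts with Slc25a and a digit, together with the uncoupling proteins Ucp2 and Ucp3, which belong to the same family under other symbols. This gave 50 of the 32883 genes in the files. Tests used the 36 carriers that reached 1 TPM in 5 or more of the 10 samples, out of 11083 genes that met this filter. TPM scales transcript levels by gene length to the same total in every sample.

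Slc25 proteins are encoded in the nucleus, and most sit in the inner mitochondrial membrane, where each moves a small set of metabolites between cytosol and matrix, often by exchanging one for another. In hepatocytes they feed the urea cycle with ornithine and aspartate, move reducing equivalents through the malate-aspartate shuttle, export citrate for fatty acid synthesis, import acylcarnitines for oxidation, and exchange ADP and phosphate for ATP. A few family members sit in other membranes, such as Slc25a17 in peroxisomes and Slc25a46 in the outer mitochondrial membrane.

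EHBR (Eisai hyperbilirubinemic rat) is a mutant line derived from SD (Sprague-Dawley) rats that lacks the bile canalicular pump Mrp2, encoded by Abcc2, and has conjugated bilirubin in its blood. Livers of 5 EHBR and 5 SD males were sequenced, all at 5 weeks of age and with no treatment named in the labels. All EHBR livers share the Abcc2 defect and the rest of the EHBR background, so the effect of the lost pump and that of other strain differences cannot be told apart. The samples carry numbers 1 to 5 in each strain, and no label gives litters, cages or pairing, so a p-value here speaks only of the spread among these livers.

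The libraries held 13.8 to 19.6 M reads assigned to genes. Abcc2 was at 60.0 to 271 TPM in SD and at 10.1 to 17.6 TPM in EHBR. All 10 hepatocyte markers passed the filter, while the summed level of the muscle list was 0.776 to 3.37 TPM. In both strains, numbers 4 and 5 differed from numbers 1 to 3 across many genes, a division seen in the data with no batch given in the labels, so strain differences are given within both sets as well. Differences are EHBR minus SD on the scale of log2(TPM + 1), on which the change of a gene at low TPM comes out too small. They were tested with limma, with Benjamini-Hochberg adjustment over all 11083 genes and a threshold of 0.05. Values after ± are standard deviations over the 5 livers of a strain. Some marker lists held genes that passed this test for strain. In EHBR, 3 of 8 tested sinusoidal endothelial and 1 of 7 erythroid markers were higher, beside 3.82% of all genes. Beside the same share, 1 of 10 hepatocyte markers (Ass1) and 1 of 3 adipose markers (Fabp4, by 1.392) were higher. The other tested adipose markers, Cidea and Cfd, went the other way, by -0.575 and -0.656. The 1 tested exocrine pancreas marker was lower, beside 1.63%. The lymphocyte, cholangiocyte, stellate and muscle lists had 0 called.

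The carriers spanned a wide range of levels. Of the 36 tested, 9 had a mean of at least 100 TPM over the 10 samples, 12 lay between 10 and 100 TPM and 15 lay under 10 TPM. Slc25a5, an ADP/ATP carrier, was the most abundant carrier in all 10 samples, with a mean of 373 TPM. The other 8 in the upper class were the phosphate carrier Slc25a3, the glutathione importer Slc25a39, the liver-enriched Slc25a47, the citrate carrier Slc25a1, the dicarboxylate carrier Slc25a10, the ornithine carrier Slc25a15, the carnitine-acylcarnitine carrier Slc25a20 and the aspartate-glutamate carrier Slc25a13. Summed over all 50 genes, the carriers took 2001 to 2140 TPM in SD and 2096 to 2331 TPM in EHBR, or 0.2% to 0.214% and 0.21% to 0.233% of all TPM. The ranges overlapped through SD sample 2 and EHBR sample 5. The 6 carriers with the highest means over all 10 samples made up 57.9% to 68.9% of the sum of a sample.

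**Figure D1:**
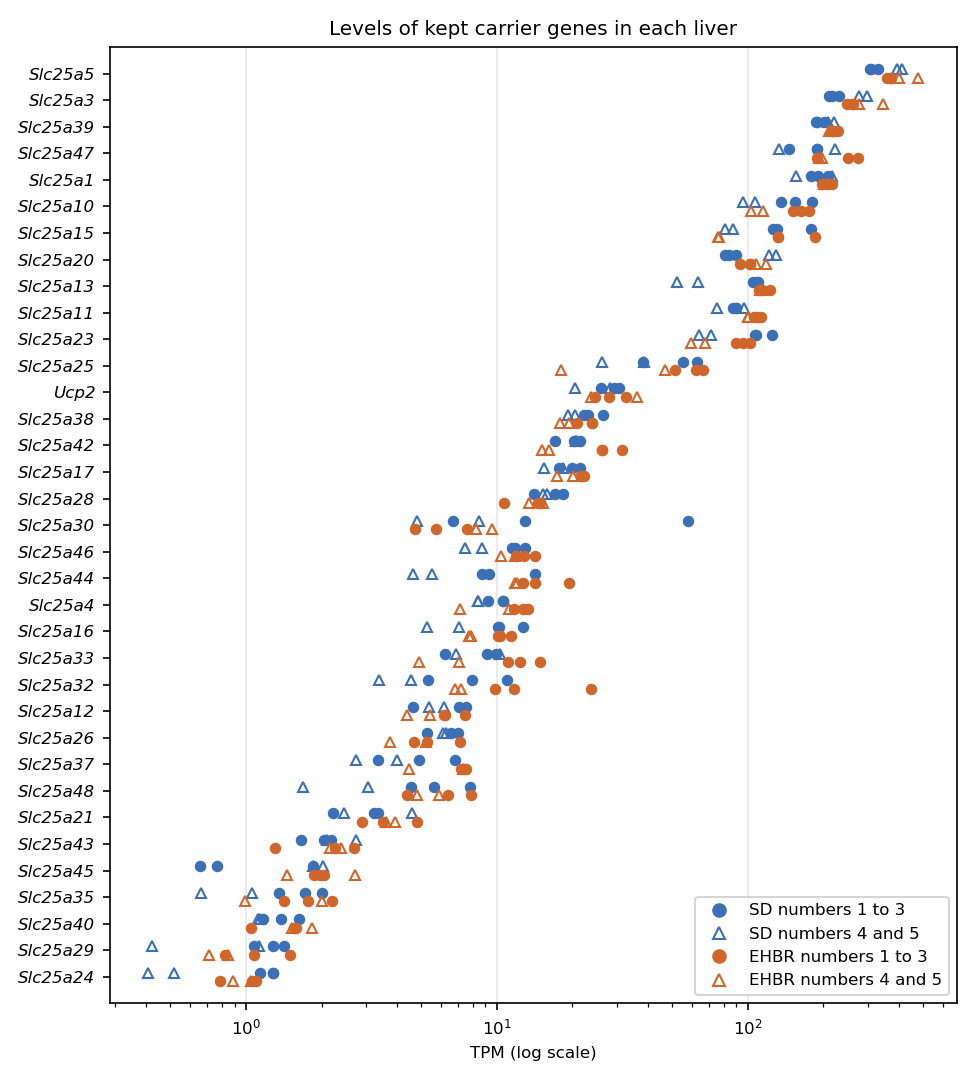
TPM on a log scale (x axis) of tested carriers (y axis, by mean level) in each of the 10 livers. Blue marks SD and orange EHBR, with filled circles for numbers 1 to 3 and open triangles for numbers 4 and 5. Slc25a5 lies to the right of every other carrier in each sample, while Slc25a30 has 1 SD liver at 57.7 TPM far from its other points.

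The remaining 14 carriers did not meet the filter. Slc25a18, a glutamate carrier, Slc25a31, a testis ADP/ATP carrier, and Ucp3, an uncoupling protein of muscle, were listed at 0 in every sample. A closer case was Slc25a14, which reached 1 TPM in 3 samples and ranged from 0.631 to 1.74 TPM. Slc25a2, an ornithine carrier related to Slc25a15, reached it in 2 samples with at most 1.59 TPM. The other 9 stayed under 1 TPM in all samples. Of those, Slc25a6 and Slc25a52 are annotated in the files as pseudogenes, and Slc25a22 is a glutamate carrier related to Slc25a18. Values of near-identical copies, above all Slc25a5 with Slc25a4 and the pseudogene Slc25a6, are uncertain because the counting could divide their reads.

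Closely related carriers differed widely in level. Slc25a13 made up a median of 93.6% of the summed TPM of Slc25a13 and its relative Slc25a12, the aspartate-glutamate carrier of brain and muscle, in SD, and 94.8% in EHBR. Slc25a5 made up 97.3% of its sum with the heart and muscle form Slc25a4 in SD and 97.0% in EHBR. For Slc25a15 the share against Slc25a2 was 99.5% in both strains, and for Slc25a39 against Slc25a40 it was 99.4% and 99.3%. The iron carriers were the most even pair, with Slc25a28 at 72.9% to 84.8% of its sum with Slc25a37 in SD and at 58.6% to 77.3% in EHBR. These strain ranges of the iron carrier share overlapped, and no test was run on them.

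None of the 36 carriers passed the test for strain with limma, in either direction, while 5.45% of all tested genes did, 3.82% as higher and 1.63% as lower in EHBR. The lowest adjusted p was 0.104, for Slc25a11. At an unadjusted p under 0.05 there were 4 carriers, Slc25a11, Slc25a13, Slc25a37 and Slc25a44, or 11.1%, against 20.9% of all genes. Voom on recovered reads called 0 carriers in both directions. The share of all genes that voom called is not given here, so this count is not read as a result about the carriers. Differences ran from -0.68 for Slc25a30 to 0.74 for Slc25a32. The median difference of the carriers was 0.14 and that of all tested genes 0.15, and the median size of a difference without its sign was 0.17 for carriers and 0.21 for all genes.

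Of the 36 differences, 27 (75.0%) were above 0, beside 73.1% of all genes, and with median centring, which subtracts each sample's median gene and moves the median of all genes from 0.15 to -0.02 (log2), 14 (38.9%) were above 0, beside 47.4%. Centring lowers the difference of every gene by the same amount. The balance of directions among carriers thus followed the scaling, as it did over all genes. For 31 of 36 carriers (86.1%) the 95% interval of the difference lay within 1 on the log2 scale in both directions, beside 85.7% of all genes. The 5 exceptions were Slc25a30, Slc25a32, Slc25a37, Slc25a44 and Slc25a48. In bulk liver, fewer cells of a type and less RNA per cell cannot be told apart.

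**Figure D2:**
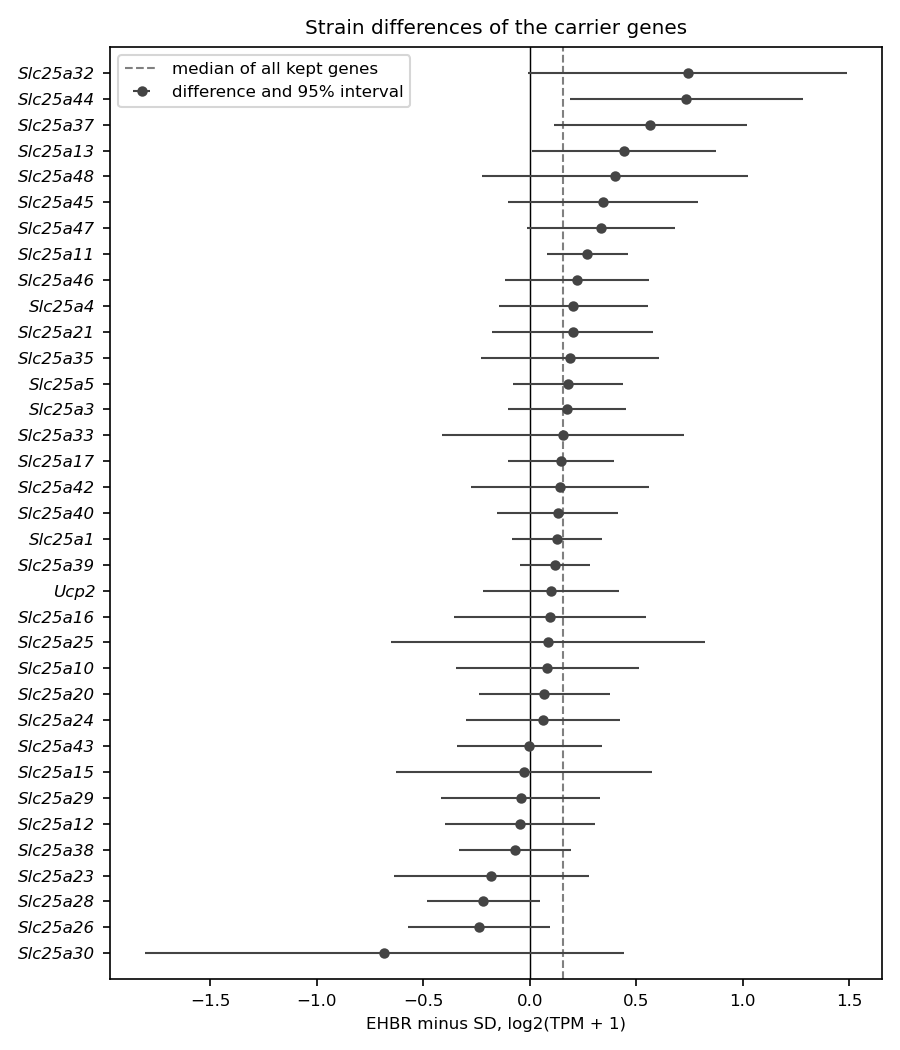
Strain difference in log2(TPM + 1), EHBR minus SD (x axis), of tested carriers (y axis), with bars for the 95% interval from limma and a dashed line at 0.15, the median of all tested genes. The intervals of 4 carriers, Slc25a11, Slc25a13, Slc25a37 and Slc25a44, lie to the right of 0, and no adjusted p was under 0.05.

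The malate, citrate and dicarboxylate carriers come first among the roles. All 4 were tested and all 4 had differences above 0, with a median of 0.16, and 2 of 4 after median centring. Slc25a11, the oxoglutarate-malate carrier of the malate-aspartate shuttle, was at 89.6, 87.2, 89.9, 75.1 and 96.4 TPM in SD samples 1 to 5. In EHBR samples 1 to 5 it was at 105, 109, 113, 100.3 and 100.4 TPM. Every EHBR liver lay above every SD liver, though EHBR 4 and 5 were close to SD 5. The means were 87.7 ± 7.80 and 106 ± 5.63 TPM (n = 5 per strain), a difference of 0.27 (SE 0.09, adjusted p = 0.104, limma).

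A term for the division into numbers 1 to 3 and 4 and 5 left the difference of Slc25a11 at 0.27 (SE 0.07), and it then passed the test (adjusted p = 0.03, limma). Among numbers 1 to 3 alone it was 0.29 (adjusted p = 0.0456, limma), and among numbers 4 and 5 alone 0.24. Relative to the median gene of each sample the difference was 0.10. The citrate carrier Slc25a1 was at 190 ± 24.1 TPM in SD and 206 ± 7.38 TPM in EHBR, a difference of 0.13 that was -0.04 after median centring. Slc25a10, which exchanges malate and succinate for phosphate, was at 134 ± 34.4 and 141 ± 31.0 TPM, with a difference of 0.08 that was -0.09 after centring. Slc25a21, which carries oxoadipate, was at 3.17 ± 0.934 and 3.75 ± 0.691 TPM.

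Among the 10 genes grouped here as amino acid carriers, 7 were tested and 3 had differences above 0, with a median of -0.03. These 3 were Slc25a13, Slc25a44 and Slc25a48, all above 0 after centring too. Slc25a48 was placed in this group by a list, and its substrate was not examined. Slc25a13 (citrin) exports aspartate from the matrix in exchange for glutamate. It was at 105, 109, 109, 63.4 and 52.4 TPM in SD samples 1 to 5, and at 114, 122, 110.3, 114 and 112 TPM in EHBR samples 1 to 5. SD samples 4 and 5 were low, SD samples 1 to 3 came close to the EHBR livers, and the strains did not overlap. The difference over all 10 samples was 0.44 (SE 0.20, 95% interval 0.01 to 0.88, adjusted p = 0.23, limma). It was 0.28 without SD sample 5, 0.20 with sample weights and 0.27 after centring.

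The strain difference of Slc25a13 was 0.10 among numbers 1 to 3 (adjusted p = 0.469, limma) and 0.96 among numbers 4 and 5 (adjusted p = 0.0349, limma). The test of the difference between these sets, an interaction of strain with the division, gave 0.86 (SE 0.14, adjusted p = 0.0431, limma). It was the only carrier called for this interaction with TPM as deposited, 1 of 36 beside 0.271% of all genes. The call was close to the threshold and was lost in 15 of 20 alternatives, in which the size stayed between 0.62 and 0.995 and the adjusted p ranged from 0.0238 to 0.423. Of the samples left out in turn, each of SD 1, 2, 3 and 5 and EHBR 1 to 5 ended the call. Without SD 5 the value was 0.72.

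Slc25a44 carries branched-chain amino acids into mitochondria, a role described in brown fat. Its levels were 9.29, 14.2, 8.69, 5.53 and 4.63 TPM in SD samples 1 to 5 and 19.3, 14.2, 12.7, 12.0 and 11.8 TPM in EHBR samples 1 to 5. SD sample 2 lay within the EHBR range, and the other 4 SD livers lay below all EHBR livers. The means were 8.46 ± 3.76 and 14.0 ± 3.10 TPM, a difference of 0.74 (SE 0.25, adjusted p = 0.123, limma). With the number term the difference was again 0.74 (SE 0.17, adjusted p = 0.017, limma). It was 0.50 among numbers 1 to 3 and 1.09 among numbers 4 and 5 (adjusted p = 0.0358, limma), and the interaction did not pass. Leaving out SD sample 2 brought the difference to 0.93 (adjusted p = 0.0321, limma). After centring with the number term it was 0.57 (adjusted p = 0.0405, limma).

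Promoters are shown for Slc25a11, Slc25a13 and Slc25a44, because these carriers passed a strain test with the number term or within a set of numbers and have a matched promoter in RefSeq. Each is the 250 bases before the annotated start in the build GRCr8, 5′ to 3′ in the direction of transcription, from the minus strand of the chromosome. Capitals mark CCAAT boxes (CCAAT, or ATTGG on the other strand) and GC boxes (GGGCGG, or CCGCCC on the other strand). The locations are chr10:55859061-55859310 for Slc25a11, chr4:35328361-35328610 for Slc25a13 and chr2:176180839-176181088 for Slc25a44.
Slc25a11: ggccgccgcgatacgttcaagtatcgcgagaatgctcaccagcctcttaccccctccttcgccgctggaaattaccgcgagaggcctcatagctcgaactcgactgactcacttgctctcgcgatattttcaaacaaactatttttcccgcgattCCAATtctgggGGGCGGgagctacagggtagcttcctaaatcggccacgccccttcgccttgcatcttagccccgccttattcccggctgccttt
Slc25a13: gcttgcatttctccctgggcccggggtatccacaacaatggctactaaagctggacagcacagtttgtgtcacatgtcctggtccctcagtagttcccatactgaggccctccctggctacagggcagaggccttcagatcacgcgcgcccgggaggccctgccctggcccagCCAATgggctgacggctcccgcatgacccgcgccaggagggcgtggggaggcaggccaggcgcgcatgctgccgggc
Slc25a44: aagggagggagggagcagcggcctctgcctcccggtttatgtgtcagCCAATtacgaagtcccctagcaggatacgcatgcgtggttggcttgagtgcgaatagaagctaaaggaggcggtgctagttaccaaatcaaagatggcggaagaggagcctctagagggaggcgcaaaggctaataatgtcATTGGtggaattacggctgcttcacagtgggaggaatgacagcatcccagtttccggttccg

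The Slc25a11 promoter held 1 CCAAT box and 1 GC box, the Slc25a13 promoter 1 CCAAT box and the Slc25a44 promoter 2 CCAAT boxes, which lie on opposite strands. Their GC contents were 56.0%, 66.0% and 54.0%, beside a median of 51.2% over all promoters, and they held 22, 13 and 12 CpG dinucleotides beside a median of 5. RefSeq promoters were matched by symbol for 32 of the 36 tested carriers. A CCAAT box was found in 18 of these 32 (56.2%) and in 34.0% of all 33469 promoters of the same length. A GC box was found in 17 (53.1%) and in 30.5% of all promoters. That table covers genes of every kind and level, so these shares are descriptions and were not tested. The NRF1 element, read on both strands, was in none of the 32 and in 3.75% of all promoters, and the ERR element TNAAGGTCA was in none of the 32 and in 1.04%. The matches overlap with no other searched motif in the 3 sequences shown, and they do not show binding.

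In the files' own build rn6, Slc25a11 lies on chromosome 10 from 57265704 to 57268081, Slc25a13 on chromosome 4 from 31608269 to 31730386 and Slc25a44 on chromosome 2 from 187774062 to 187786731. The 50 genes are spread over 18 chromosomes. Slc25a28 is the carrier nearest to the defective Abcc2 gene, with 123 kb between them on chromosome 1. Some neighbouring carriers on a chromosome differed widely in level: Slc25a47 and Slc25a29 lie 14.5 kb apart and had means of 176 and 1.07 TPM in SD. Slc25a5 and Slc25a43 lie 19.7 kb apart, with means of 350 and 2.15 TPM in SD. Slc25a54 and Slc25a24, 4.64 kb apart, were both low, with means of 0.0348 and 0.926 TPM in SD.

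The remaining genes of the amino acid group did not pass in any of these tests. Slc25a15, which brings ornithine into the matrix for the urea cycle, was at 126, 179, 131, 87.4 and 80.9 TPM in SD samples 1 to 5 and at 132, 132, 185, 77.0 and 76.3 TPM in EHBR samples 1 to 5. In both strains numbers 4 and 5 lay below numbers 1 to 3, and the strains overlapped throughout. The difference was -0.03 (SE 0.28), with an interval from -0.63 to 0.58, and -0.20 after centring. Slc25a38, a glycine carrier needed for heme synthesis, was at 22.3 ± 2.76 and 21.2 ± 2.75 TPM. Slc25a12 and the basic amino acid carrier Slc25a29 had differences of -0.04 and -0.04. Slc25a48, with 4.54 ± 2.35 and 5.86 ± 1.39 TPM, had a difference of 0.05 among numbers 1 to 3 and 0.93 among numbers 4 and 5, and its interaction did not pass (adjusted p = 0.237, limma).

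**Figure D3:**
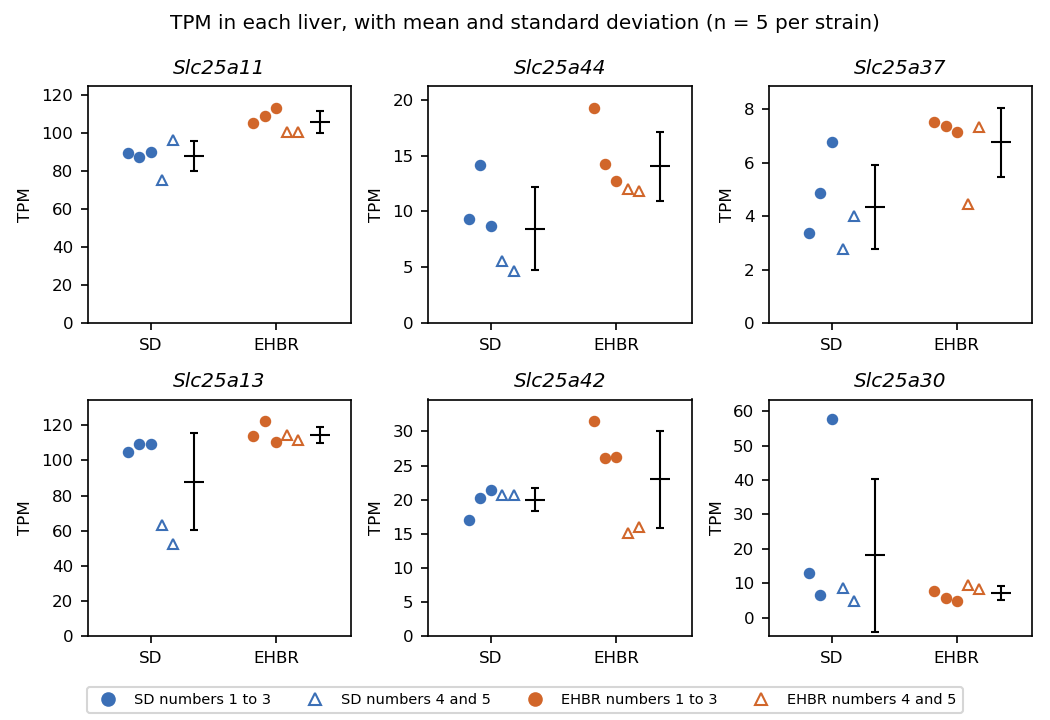
TPM (y axis) of 6 carriers in each liver, by strain (x axis), with filled circles for numbers 1 to 3, open triangles for numbers 4 and 5, and a black line and bar for the mean and standard deviation of 5 livers. Slc25a11 and Slc25a13 show no overlap between strains, the low Slc25a13 points are SD numbers 4 and 5, and the wide SD bar of Slc25a30 comes from the liver at 57.7 TPM and reaches below 0.

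The adenine nucleotide and phosphate carriers supply oxidative phosphorylation. Of 9, 6 were tested, and 5 had differences above 0, with a median of 0.13, and 3 after centring. Slc25a5 was at 309, 330, 306, 394 and 413 TPM in SD samples 1 to 5 and at 358, 369, 374, 479 and 401 TPM in EHBR samples 1 to 5. The strains overlapped, while numbers 4 and 5 of both strains lay above all of numbers 1 to 3. The strain difference was 0.18 (SE 0.12, adjusted p = 0.4, limma) and 0.01 after median centring. Slc25a3, which imports the phosphate that ATP synthase uses, was at 247 ± 38.7 and 279 ± 38.9 TPM, and its difference of 0.18 was 0.01 after centring.

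Calcium-regulated ATP-Mg/phosphate carriers set the size of the matrix adenine nucleotide pool. Slc25a23 was the most abundant of them, at 94.9 ± 26.1 and 82.8 ± 18.4 TPM, a difference of -0.18. That difference did not pass (adjusted p = 0.635, limma), and after centring it was -0.35. Slc25a23 was called lower with centring and the number term, a fit added after seeing the data. The share of all genes called lower in that fit is not given here. Slc25a25 ranged from 26.2 to 62.9 TPM in SD and from 18.0 to 66.5 TPM in EHBR, with a difference of 0.08 (SE 0.34). Slc25a24 stayed near 1 TPM, at 0.926 ± 0.428 and 0.974 ± 0.131 TPM. The ADP/ATP carrier Slc25a4 was at 9.42 ± 1.08 and 11.2 ± 2.43 TPM.

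The carriers of cofactors, nucleotides and acylcarnitines held 11 genes, of which 8 were tested. Differences were above 0 in 7 of 8, with a median of 0.14, and in 1 of 8 after centring. Slc25a20, which brings acylcarnitines to the matrix for beta-oxidation, was at 101 ± 22.6 TPM in SD and 104.5 ± 9.32 TPM in EHBR. Its difference was 0.22 among numbers 1 to 3 and -0.15 among numbers 4 and 5, and the interaction did not pass (adjusted p = 0.164, limma). Numbers 4 and 5 lay above numbers 1 to 3 in both strains for this gene.

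Slc25a42, which imports coenzyme A, and Slc25a32, a folate and flavin carrier, were singled out after their values were seen. Slc25a42 was at 17, 20.3, 21.4, 20.7 and 20.7 TPM in SD samples 1 to 5 and at 31.5, 26.1, 26.2, 15.2 and 16.1 TPM in EHBR samples 1 to 5. EHBR 1 to 3 lay above every SD liver and EHBR 4 and 5 below every SD liver. The difference was 0.49 among numbers 1 to 3 and -0.39 among numbers 4 and 5, and the interaction of -0.88 missed the threshold (SE 0.18, adjusted p = 0.0774, limma). With median centring it was called in place of Slc25a13.

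Slc25a32 was at 5.34, 11, 7.96, 3.38 and 4.56 TPM in SD samples 1 to 5 and at 9.85, 11.7, 23.7, 7.17 and 6.80 TPM in EHBR samples 1 to 5. EHBR 3 was the highest liver and the strains overlapped. The difference was 0.74 (SE 0.34, adjusted p = 0.244, limma), and 0.47 without EHBR 3 (adjusted p = 0.433, limma). The pyrimidine nucleotide carrier Slc25a33 showed 0.56 among numbers 1 to 3 and -0.45 among numbers 4 and 5. The peroxisomal carrier Slc25a17 was at 18.6 ± 2.28 and 20.6 ± 1.92 TPM, and the S-adenosylmethionine carrier Slc25a26 at 6.24 ± 0.652 and 5.21 ± 1.23 TPM. Slc25a16 had a difference of 0.10.

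Among the iron and glutathione carriers, all 4 were tested and 3 had differences above 0, with 1 of 4 after centring. Slc25a37 (mitoferrin-1) imports iron into mitochondria and is known best from developing red cells. It was at 3.37, 4.88, 6.79, 2.75 and 3.99 TPM in SD samples 1 to 5 and at 7.54, 7.37, 7.16, 4.47 and 7.33 TPM in EHBR samples 1 to 5. EHBR sample 4 lay within the SD range and the other 4 EHBR livers above it. The means were 4.36 ± 1.57 and 6.78 ± 1.3 TPM, a difference of 0.57 (SE 0.21, adjusted p = 0.148, limma).

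With the number term, Slc25a37 stayed at 0.57 and was called close to the threshold (SE 0.17, adjusted p = 0.0479, limma). After centring it was 0.40. It rests on 62 to 124 reads per library. Of 16 erythroid markers 12 were in the files and 7 were tested, with a median difference of 0.68. Slc4a1, the red cell anion exchanger, was the 1 of them that passed, as higher, beside 3.82% of all genes. Gata1 was at 0 in every sample. With the number term 2 were higher, Slc4a1 and Hba-a2 (adjusted p = 0.0366 for Hba-a2, limma), beside 13.6% of all genes. The summed level of the 12, mostly that of Hbb, Hba-a1 and Hba-a2, was 991 to 2070 TPM in SD and 1370 to 3330 TPM in EHBR. EHBR 4 had the lowest Slc25a37 and the lowest sum in EHBR. In SD, sample 3 had the highest Slc25a37 and the lowest sum, and sample 4 the lowest Slc25a37 and the highest sum. Among numbers 4 and 5, where Slc25a37 differed by 0.64, the 7 tested markers went both ways. The globin genes Hbb, Hba-a1 and Hba-a2 differed by -0.508, -0.205 and -0.021. Alas2, Tfrc, Slc4a1 and Ahsp differed by 0.139, 0.331, 0.728 and 0.943. The part of red cell RNA in the Slc25a37 difference was not tested.

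Slc25a28 (mitoferrin-2), the iron importer of most tissues, was at 16.1 ± 1.63 and 13.8 ± 1.84 TPM, a difference of -0.22 (SE 0.12, adjusted p = 0.328, limma). After centring it was -0.39. Slc25a28 was called lower in the added fit with centring and the number term, for which the share of all genes is not given here. Slc25a39, which imports glutathione, varied least of all carriers, with its highest sample 1.22 times its lowest. It was at 201 ± 13.6 and 218 ± 6.99 TPM, and its difference of 0.12 was -0.05 after centring. Its relative Slc25a40 was at 1.29 ± 0.221 and 1.51 ± 0.286 TPM.

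The uncoupling proteins and their relatives held 5 genes, of which Ucp2 and Slc25a30 were tested. Ucp2, which in liver is known mainly from macrophages, was at 30.7, 26.1, 29.2, 20.5 and 28.1 TPM in SD samples 1 to 5 and at 24.6, 27.9, 32.7, 36.2 and 23.6 TPM in EHBR samples 1 to 5. The strains overlapped, with EHBR 4 highest and SD 4 lowest. The difference was 0.10 (SE 0.15), with an interval from -0.22 to 0.42, and -0.07 after centring. All 13 macrophage and Kupffer cell markers found in the files, of 14 listed, were tested and 0 passed. Their summed level was 540 to 659 TPM in SD and 535 to 1030 TPM in EHBR, and EHBR 4, the liver with the highest Ucp2, also had the highest sum, while SD 5, with the highest SD sum, lay in the middle of the SD livers for Ucp2. None of these markers was at 0 in every sample, and their part in the Ucp2 levels was not tested. Ucp1, the uncoupling protein of brown fat, was listed at 0 in every sample.

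Slc25a30, a relative of the uncoupling proteins described after its values were seen, was at 12.9, 6.66, 57.7, 8.48 and 4.81 TPM in SD samples 1 to 5 and at 7.60, 5.73, 4.72, 9.55 and 8.25 TPM in EHBR samples 1 to 5. Apart from SD sample 3, the strains overlapped. Its difference of -0.68 was the lowest of all carriers and rested on that liver: without SD sample 3 it was -0.13 (SE 0.26, adjusted p = 0.757, limma).

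Slc25a46, an outer membrane protein tied to mitochondrial fusion and fission, was at 10.5 ± 2.31 and 12.2 ± 1.42 TPM, a difference of 0.22 (SE 0.16) that was 0.05 after centring and 0.12 without SD sample 5. Of the 6 carriers with no settled substrate, 4 were tested and 3 had differences above 0. Slc25a47, the most abundant of them, was at 189, 189, 146, 223 and 134 TPM in SD samples 1 to 5 and at 274, 251, 189, 193 and 197 TPM in EHBR samples 1 to 5. EHBR 1 and 2 lay above every SD liver, and the other 3 lay within the SD range. The difference was 0.33 (SE 0.16, adjusted p = 0.257, limma), and 0.16 after centring. Slc25a35, Slc25a43 and Slc25a45 stayed at or under 2.76 TPM in every sample.

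Some carriers showed no overlap by strain and others none by the division into numbers 1 to 3 and 4 and 5. Slc25a11 and Slc25a13 were the 2 carriers (5.56%) with every EHBR liver above every SD liver, beside 6.45% of all genes, and 0 carriers showed the reverse, beside 2.02%. By the division, 3 carriers, Slc25a3, Slc25a5 and Slc25a20, had numbers 4 and 5 of both strains above all of numbers 1 to 3 (8.33%, beside 3.45% of all genes). Slc25a10, Slc25a15, Slc25a16, Slc25a23 and Slc25a38 had numbers 4 and 5 below all of numbers 1 to 3 (13.9%, beside 14.0%). These counts describe a division that was itself found in the data, and no test was run on it.

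With a term for that division, 3 of 36 carriers were higher in EHBR, Slc25a11, Slc25a37 and Slc25a44, beside 13.6% of all genes, and 0 were lower, beside 3.36%. Among numbers 1 to 3 alone 1 carrier was higher, Slc25a11, beside 4.35% of all genes, and 0 were lower, beside 2.17%. Among numbers 4 and 5 alone 2 were higher, Slc25a13 and Slc25a44, beside 4.15%, and 0 were lower, beside 1.01%. The median carrier difference was 0.10 among numbers 1 to 3 and 0.12 among numbers 4 and 5, where that of all genes was 0.07 and 0.27. For 15 of 36 carriers (41.7%) the sign differed between the sets, beside 33.2% of all genes. At an unadjusted p under 0.05 the interaction held 7 carriers (19.4%), beside 20.3% of all genes.

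**Figure D4:**
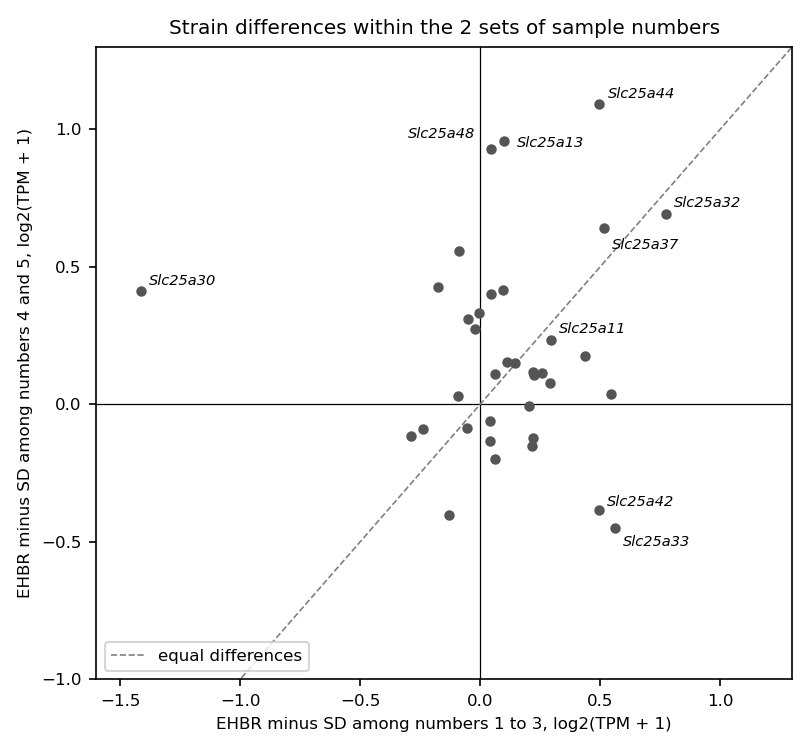
Strain difference in log2(TPM + 1), EHBR minus SD, among numbers 1 to 3 (x axis, 3 livers per strain) and among numbers 4 and 5 (y axis, 2 livers per strain) for the 36 tested carriers, with a dashed line of equal differences. Slc25a13 lies near 0.10 and 0.96, Slc25a42 and Slc25a33 lie to the lower right, and Slc25a30 lies far to the left.

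Genes that work with the carriers were taken from 4 lists, whose counts stand beside 3.82% of all genes higher and 1.63% lower in EHBR. Of 16 genes for the import of carrier proteins, 1 was higher in EHBR: Tomm40, the pore of the outer membrane, rose from 29.0 ± 4.0 to 43.3 ± 6.75 TPM, a difference of 0.56 (SE 0.13, adjusted p = 0.0325, limma). The list's median was 0.12. Of 21 other transport genes of mitochondria, 1 was higher: the outer membrane channel Vdac2 rose from 73.8 ± 3.63 to 95.9 ± 9.93 TPM, a difference of 0.37 (SE 0.09, adjusted p = 0.0356, limma). That list's median was 0.20. Mpc1, a subunit of the mitochondrial pyruvate carrier, was at 426 ± 19.0 and 348 ± 37.2 TPM, a difference of -0.30. With the number term, 13.6% of all genes were higher and 3.36% lower. In that fit 5 genes of this list were higher, Mtch2, Vdac2, Sfxn1, Mcu and Micu2, and 1 was lower, Mpc1 (adjusted p = 0.0273, limma). Of the 16 import genes, 3 were higher and 1 lower with that term.

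Enzymes that use what the carriers move made up the other 2 lists. Of 12 enzymes of the malate-aspartate and glycerol phosphate shuttles and of citrate use, 5 were higher and 0 lower, with a median of 0.36. Got1, the cytosolic aspartate aminotransferase of the shuttle that Slc25a11 and Slc25a13 serve, rose from 48.3 ± 6.12 to 93.5 ± 24.2 TPM, a difference of 0.91 (SE 0.16, adjusted p = 0.00573, limma). Its matrix counterpart Got2 was at 276 ± 12.8 and 283 ± 19.3 TPM, a difference of 0.03. Acly, which splits the citrate that Slc25a1 exports, rose by 1.49, Me1 by 1.49 and Gpd1 by 0.58. With the number term 6 of the 12 were higher, beside 13.6% of all genes, and 0 were lower.

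Of 10 urea cycle and ornithine enzymes, 3 were higher and 0 lower, with a median of 0.47. Ass1, which joins citrulline to the aspartate that Slc25a13 exports, rose from 997 ± 119 to 1730 ± 190 TPM, a difference of 0.80 (SE 0.11, adjusted p = 0.00204, limma). Gls2 and Nags rose by 0.63 and 0.40. With the number term 6 of the 10 were higher, beside 13.6% of all genes, and 0 were lower. Otc, the matrix enzyme that uses the ornithine brought in by Slc25a15, was at 420 ± 49.7 and 450 ± 57.3 TPM, a difference of 0.10. A test of the difference between these lists and the carriers was not run.

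**Figure D5:**
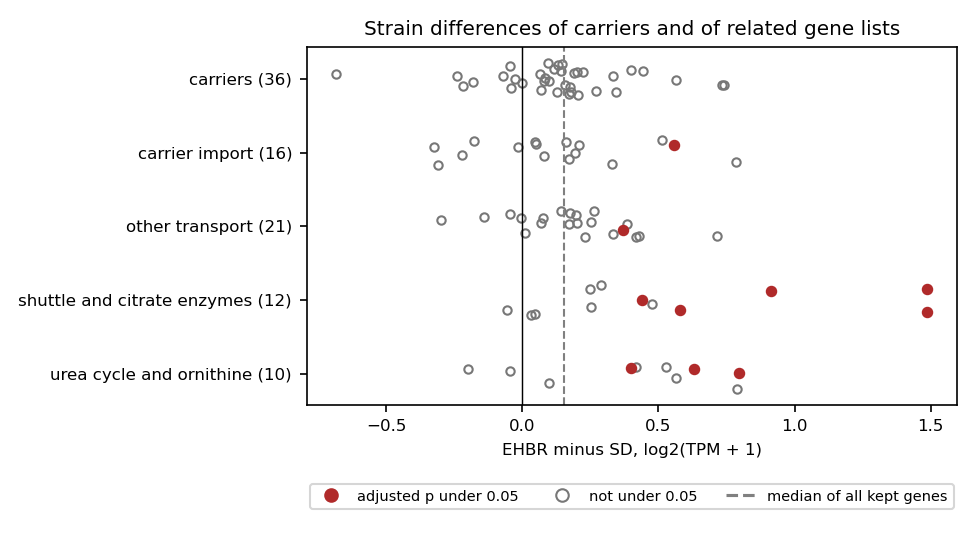
Strain difference in log2(TPM + 1), EHBR minus SD (x axis), of each tested gene in the carriers and 4 related lists (y axis, number of genes in brackets; vertical spread within a list is for display only), with a dashed line at 0.15, the median of all tested genes. Filled red points have an adjusted p under 0.05: 0 of 36 carriers, 1 of 16, 1 of 21, 5 of 12 and 3 of 10.

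Depth bears unevenly on these values. Reads were recovered for all 36 tested carriers: Slc25a5 had 4573 to 8784 reads per library and Slc25a13 1213 to 2084, while Slc25a35 had 15 to 41, Slc25a45 16 to 76, Slc25a29 18 to 50 and Slc25a24 21 to 53. For Slc25a30, Slc25a40 and Slc25a48 the deposited TPM and FPKM differed by over 0.3 on the log2 scale in at least 1 sample, after allowing for the scale of the tables.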

How the data were processed

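Per the labels' protocols, liver RNA was extracted with TRIzol, selected for poly(A) and made into strand-specific libraries. Per the submitters' processing notes, the build was rn6 and the tools included HISAT2 2.1.0 and featureCounts 1.6.3, with Trimmomatic 0.38 and FastQC 0.11.7. The strand setting of the counting is not given in the sources used for this work, so overlapping genes on opposite strands are uncertain. The authors deposited TPM, FPKM and upper-quartile FPKM per gene and sample. From the last of these, whole reads were recovered for 11001 of 11083 tested genes (tolerance 0.0002 reads). A recovered length was accepted only where every value came out whole, so that share is built in.

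The main test was limma 3.58.1 in R 4.3.3 with the trend option on log2(TPM + 1), two-sided, with strain as its only factor. Both steps were tested on simulated data. In the simulation for limma, 30% of changes of 0.5 and 88% of changes of 1 (log2) were called. Its spread left out the number division, so it may overstate the power in these data. Many true differences under 0.5 would thus be missed. The carriers, lists, tests and the number division were chosen with earlier results of these data known. Carriers followed through the alternatives were those called, the 6 most abundant and the most abundant of each role. Those called with the number term or for the interaction were added, which gave 14. Slc25a30, Slc25a32 and Slc25a42 were singled out after seeing values. Single results of other carriers outside the 14, such as Slc25a23, Slc25a28, Slc25a33 and Slc25a48, were also picked with their values known. The values of some genes are not reported here, though they enter the counts and medians. Alternatives were FPKM and upper-quartile FPKM, pseudocounts of 0.1 and 5, a filter at a mean of 5 TPM or none, quantile normalization, median centring, a robust fit, sample weights, a replicate block, the number term, each set of numbers alone, and each sample left out. Voom on recovered reads, median centring with the number term and removal of a length trend were added after seeing the data. Promoters came from RefSeq (GRCr8) and were matched by symbol for 42 of 50 carriers. Tables and figures used Python 3.11.15, pandas 2.3.3, numpy 2.4.6 and matplotlib 3.10.9.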

Additional observations from a re-analysis of the deposited data

Results flagged for a closer look

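In 4 of 72 groups of 5 livers (36 carriers in 2 strains), 1 liver stood apart from the other 4 by the size of its gap, where chance gives about 1 in 20 groups. Slc25a30 in SD sample 3 was at 57.68 TPM, with the other SD livers between 4.81 and 12.9 TPM. Slc25a32 in EHBR sample 3 was at 23.71 TPM, with the others between 6.80 and 11.7 TPM. Slc25a37 in EHBR sample 4 was at 4.47 TPM, with the others between 7.16 and 7.54 TPM, and without it the strain difference was 0.69 (adjusted p = 0.0986, limma). Slc25a42 in SD sample 1 was at 17.04 TPM, with the others between 20.3 and 21.4 TPM. The strain difference of Slc25a13 was larger among numbers 4 and 5 than among numbers 1 to 3 by 0.86 on the log2 scale, by the limma interaction test.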

How the results depend on the processing

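With TPM as deposited, 0 carriers were higher and 0 lower in EHBR with limma. The count of higher carriers was 1 with sample weights (Slc25a11), among 719 higher genes of 11083. It was 3 with the number term, beside 13.6% of all genes. It was 1 in numbers 1 to 3 alone and 2 in numbers 4 and 5 alone, beside 4.35% and 4.15%. Leaving out each sample in turn gave 0 to 1, with 1 without SD sample 2, among 439 higher genes. With median centring and the number term 1 carrier was higher (Slc25a44) and 2 were lower (Slc25a23 and Slc25a28). The shares of all genes called in that fit are not given here, so its counts are not read as a result about the carriers. For these changes the cause was not tested. Same-numbered samples correlated at 0.07 to 0.29 across genes in their deviations from the strain mean, and 4 of 10 samples correlated best with their own number, so the numbers were not taken to pair samples. With the replicate number as a block, 1 carrier was higher (Slc25a44, difference 0.735, adjusted p = 0.0477, limma), among 639 higher genes of 11083.

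The 1 carrier called for the interaction was Slc25a13, among 30 called genes of 11083. The count became 0 with FPKM, upper-quartile FPKM, quantile normalization and sample weights, among 14, 19, 24 and 8 called genes of 11083. With no filter it was 0, among 13 called genes of 18443. With median centring Slc25a13 was lost as well and Slc25a42 was called, among 39 genes. Where so few genes are called, a count of 0 says little about the carriers. Leaving out each sample in turn gave a count of 0 to 1. Of 378 alternative values of the 14 carriers followed through the alternatives, 333 kept their direction and side of the threshold. Another 10 newly passed it and 35 changed sign, the latter in 6 carriers, none of them called in any fit. FPKM gave -0.031 for Slc25a20 and -0.013 for Slc25a10. Upper-quartile FPKM gave -0.065 for Ucp2, -0.1 for Slc25a20, -0.046 for Slc25a39, -0.081 for Slc25a10 and -0.042 for Slc25a1. Quantile normalization gave -0.023 for Ucp2. Median centring, with or without the number term, gave -0.071 for Ucp2, -0.101 for Slc25a20, -0.051 for Slc25a39, -0.088 for Slc25a10 and -0.042 for Slc25a1. Numbers 1 to 3 alone gave 0.042 for Slc25a15 and -0.02 for Ucp2, and numbers 4 and 5 alone gave -0.153 for Slc25a20 and -0.007 for Slc25a39. Voom gave -0.032 for Slc25a20 and -0.012 for Slc25a10. With the length trend removed, Ucp2 was at -0.011, Slc25a20 at -0.057 and Slc25a10 at -0.056. Leaving out each sample gave -0.201 to 0.127 for Slc25a15, -0.003 to 0.165 for Slc25a20 and -0.032 to 0.195 for Slc25a10.

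Depth limits the carriers under 10 TPM most, since some had as few as 15 reads in a library. A miss of the threshold does not show that a carrier was equal in both strains.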
